A study of Mus musculus with 36 samples.

Results

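Halofuginone given alone to wild-type mouse embryonic fibroblasts was compared with its DMSO control across all genes. The comparison rests on 6 of the 36 libraries in the series, 3 from wild-type (WT) cells treated with halofuginone and 3 from WT cells that received DMSO, chosen by their genotype and treatment labels. The whole series crosses 2 genotypes, WT and cells without the kinase PERK, with 6 treatments, in 3 replicates each. Beside the 6 libraries, 4 further groups of 3 served for comparison: WT cells with BtdCPU, WT cells with thapsigargin, PERK-null cells with halofuginone and PERK-null cells with DMSO. Neither dose nor treatment time is given in the labels, nor the age, strain or number of embryos behind the cells. For both genotypes the cell line is labelled only MEF, with no clone or origin, so a difference between genotypes and one between lines cannot be told apart. Nothing in the labels ties replicates to separate cultures, so p-values measure the spread between replicate libraries, which may be technical. That spread was estimated over the replicates of all 36 libraries, not only over those compared.

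Halofuginone is a synthetic relative of febrifugine, a plant alkaloid, and it occupies the active site of prolyl-tRNA synthetase, the proline-charging part of the enzyme encoded by Eprs. Uncharged tRNA then activates GCN2 (gene Eif2ak4), a kinase that phosphorylates eIF2 alpha, slows translation and favours translation of ATF4. ATF4 in turn raises genes of amino acid synthesis, amino acid import and tRNA charging, the programme called the integrated stress response (ISR). In fibroblasts the compound is also known as an inhibitor of collagen synthesis and of TGF-beta signalling.

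The 3 halofuginone libraries held 35663493 to 36723456 counts and the 3 DMSO libraries 33630755 to 35087841. Levels are given as CPM, counts scaled to a common library total, on TMM-scaled library sizes, and 3 counts, used as a floor, correspond to a mean of 0.0876 CPM in the DMSO libraries. The r of log2 CPM across genes was at least 0.981 between halofuginone libraries, at least 0.987 between DMSO libraries and at most 0.926 across the groups. The labelled cell type was checked with 11 fibroblast markers, which summed to 24351 to 32429 CPM in DMSO and to 28338 to 39327 CPM under halofuginone. Col1a1, Col1a2, Vim and Fn1 were the most abundant. Fn1 (means of 7308 and 20373 CPM) and Thy1 lay higher in all halofuginone libraries than in any DMSO library. Col1a1, Col1a2, Col3a1, Pdgfrb and S100a4 lay lower in all, S100a4 from 1832, 2126 and 1200 to 417, 341 and 326 CPM. Vim, Pdgfra, Lum and Dcn overlapped between the groups. All 5 muscle markers were at the floor in all 6 libraries, as were Adipoq and Plin1 of fat. The 4 fat markers summed to 3.87 to 8.18 CPM in DMSO and 5.52 to 8.64 CPM under halofuginone, carried by Fabp4 and Pparg. Fabp4 was at 3.66, 6.52 and 2.76 CPM in DMSO and 2.11, 2.73 and 1.36 CPM under halofuginone. Pparg was at 2.11, 1.66 and 1.11 CPM in DMSO and 6.53, 5.07 and 4.16 CPM under halofuginone. Neural and glial markers summed to 146 to 199 CPM in DMSO and 137 to 155 CPM under halofuginone, carried by Nes, Tubb3 and Map2, with Sox2, Sox10 and Gfap at the floor. Endothelial markers summed to 0.248 to 1.24 and 3.22 to 5.33 CPM, with Emcn at the floor and Kdr at most 0.0619 CPM in DMSO and 2.32, 1.67 and 4.41 CPM under halofuginone. The part of other cell types in the results was not tested. In bulk RNA, fewer cells of a type and less RNA per cell cannot be told apart.

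The response was broad. Of 16065 genes tested with edgeR's quasi-likelihood test, 10949 (68.2%) passed an adjusted p of 0.05, and this is what "rose", "fell" and "changed" mean below. Higher were 5577 genes (34.7%) and lower were 5372 (33.4%), the background against which the count of any list has to be read. At least 2-fold higher were 3271 genes (20.4%) and at least 2-fold lower 2737 (17.0%). In 10845 genes (67.5%) the CPM of the 2 groups did not overlap. Gene lists are described by how many members rose and fell and by their median, read beside the median of all tested genes, 0.004 on the log2 scale. When scaled by library size alone, that median shifts by -0.114, so differences of that size are relative to the TMM scaling.

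ATF4 and its partner C/EBP factors bind a composite element, searched here as TGATGNAA on both strands from 250 bases before to 50 bases after a gene's start, from RefSeq promoters of GRCm38.p6 (the first start listed for a gene). Of 14 ISR regulators with a listed promoter, 4 held it (28.6%), namely Atf3, Nupr1, Trib3 and Chac1, against 4.06% of all 27025 promoters. Of 9 serine and one-carbon enzymes with a listed promoter, 0 held it. Asns, which makes asparagine, holds it too, but no share is given for its list, where promoters covered 72.7%. The stretches that carry the match in these genes of the response are printed 5′ to 3′ along the gene, with the element, or its reverse complement, in capitals. Asns lies at chr6:7693210-7693329, minus strand, Chac1 at chr2:119351029-119351148, plus strand, Atf3 at chr1:191183344-191183463, minus strand, and Trib3 at chr2:152344028-152344057, minus strand. The Trib3 stretch lies just after the annotated start and the other 3 end at or before it. No match was found in the windows of Ddit3, Sesn2 and Psat1, which says only that these letters are not in those windows.
Asns: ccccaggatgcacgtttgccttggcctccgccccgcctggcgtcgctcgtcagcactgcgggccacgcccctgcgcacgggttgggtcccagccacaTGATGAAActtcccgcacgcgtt
Chac1: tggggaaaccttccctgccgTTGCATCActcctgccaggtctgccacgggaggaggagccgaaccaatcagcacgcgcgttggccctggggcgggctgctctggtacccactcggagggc
Atf3: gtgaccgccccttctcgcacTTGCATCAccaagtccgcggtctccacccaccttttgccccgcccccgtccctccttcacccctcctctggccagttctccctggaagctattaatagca
Trib3: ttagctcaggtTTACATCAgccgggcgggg

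The regulators of the integrated stress response rose together. Of 17 tested, 15 rose, 1 fell and 1 did not pass, with a median log2 fold change of 1.68. Atf3, a stress-induced transcription factor whose promoter is shown above, stood at 1.09, 1.10 and 1.27 CPM in the DMSO libraries and at 153, 148 and 154 CPM under halofuginone. That is 132-fold in the means and 7.04 on the log2 scale (SE 0.26, edgeR adjusted p = 1.3e-19). Atf4 itself, which is mainly controlled through translation, went from 371, 393 and 317 to 881, 829 and 782 CPM, a log2 rise of 1.20 (SE 0.11). In both genes all halofuginone libraries lay above all DMSO libraries.

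Effectors of the pathway rose too. Ddit3, which encodes the pro-apoptotic factor CHOP, measured 13.9, 16.05 and 10.8 CPM in DMSO and 149, 173 and 125 CPM in halofuginone (log2 3.45), although its locus overlaps Mars and Mbd6 and reads of the neighbours cannot be separated with certainty. Chac1, a glutathione-degrading enzyme, rose from 7.46, 10.9 and 3.78 to 150.4, 141 and 132 CPM (log2 4.25). Ppp1r15a, the phosphatase subunit GADD34 that removes the phosphate from eIF2 alpha, rose from 19.6, 14.8 and 16.8 to 317, 296 and 359.5 CPM (log2 4.25). All halofuginone libraries lay far above all DMSO libraries for these 3 genes. Trib3, a pseudokinase that restrains ATF4, was more spread, with 10.3, 18.9 and 6.62 CPM in DMSO and 151, 166 and 91.8 CPM under halofuginone (log2 3.51, SE 0.29). The exception in direction was Ddit4, an inhibitor of mTORC1 that is often listed among ATF4 targets. Its CPM went from 39.7, 58.3 and 30.4 to 23.3, 29.1 and 12.9, a log2 change of -0.98 (edgeR adjusted p = 0.0018).

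**Figure D1:**
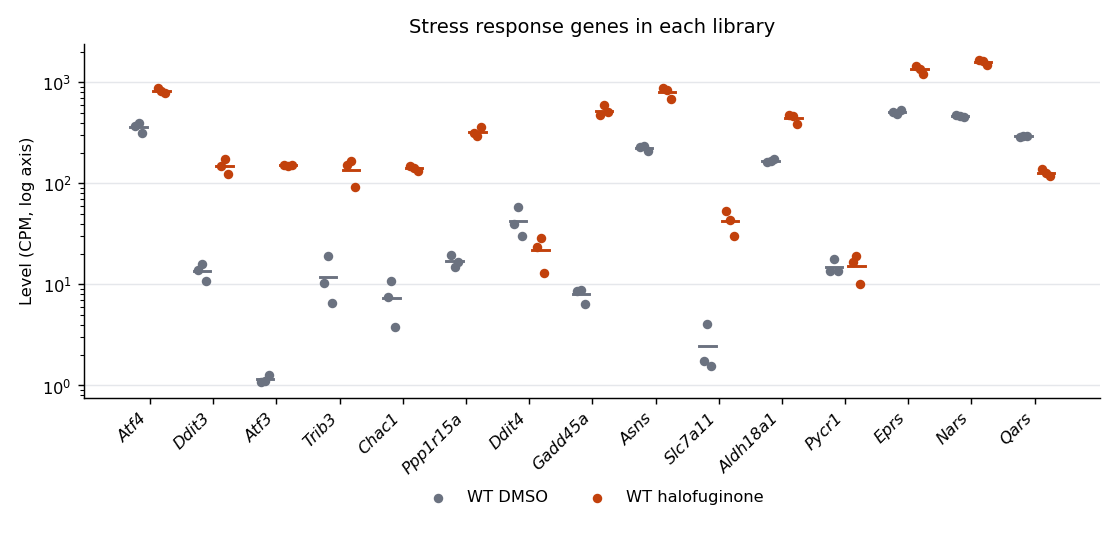
Level of 15 genes in each WT library, in CPM on a log axis. Dots are single libraries and short lines are means of 3, grey for DMSO and orange for halofuginone. Atf3 is at most 1.27 CPM in DMSO and at least 148 CPM under halofuginone, Ddit4 and Qars lie lower under halofuginone, and Pycr1 overlaps between the groups.

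Secreted products of the response rose as well, 7 of 8 with a median of 3.48. Vegfa, the angiogenic growth factor, rose from 36.3, 41.1 and 30.8 to 306, 284 and 224 CPM. Gdf15, a hormone of nausea and weight loss, had no count in DMSO libraries 1 and 3 and 0.169 CPM in library 2, against 5.98, 8.36 and 2.68 CPM under halofuginone. Its level thus remained low even after the rise, and its fitted log2 change of 6.53 rests on very few counts in the controls. Of 7 genes of the eIF2 alpha kinases and cofactors of GCN2, 2 rose (1 without DMSO replicate 3), 3 fell and 2 did not pass. Eif2ak4, the gene of GCN2, was slightly lower, from 76.2, 76.6 and 88.9 to 57.5, 56.00 and 74.1 CPM (log2 -0.37, edgeR adjusted p = 0.0115, but 0.0648 without halofuginone replicate 2 and 0.0630 without DMSO replicate 3). Eif2ak3, the gene of PERK, measured 29.3, 32.7 and 55.5 CPM under halofuginone and 30.3, 32.4 and 30.7 CPM in DMSO and did not pass (edgeR adjusted p = 0.0991).

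Genes of amino acid supply rose selectively. The tRNA synthetases of the cytosol rose in most cases, with 16 of 20 higher, 2 lower and a median of 1.18. Eprs, whose protein is the target of the compound, rose from 509, 483 and 529 to 1448, 1371 and 1214 CPM (log2 1.41, SE 0.10, edgeR adjusted p = 2.4e-13). Nars, for asparagine, rose from 479, 461 and 449 to 1664, 1628 and 1488 CPM. The 2 that fell were Qars, for glutamine, and Kars, for lysine. Qars went from 289, 292 and 295 to 138, 127 and 119 CPM (log2 -1.19) and Kars from 613, 519 and 674 to 456, 432 and 384 CPM (log2 -0.50). The mitochondrial tRNA synthetases were divided, with 5 of 17 higher and 8 lower. Pars2, the mitochondrial enzyme for proline, was among those that fell, from 6.43, 5.54 and 4.92 to 2.04, 2.61 and 1.39 CPM (log2 -1.48).

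The enzymes of proline synthesis did not move in 1 direction. Aldh18a1, which commits glutamate to proline, rose from 164, 168 and 173 to 475, 461 and 385 CPM (log2 1.39). Pycr1, which carries out the last step in mitochondria, measured 13.7, 17.8 and 13.5 CPM in DMSO and 16.5, 19.3 and 10.2 CPM under halofuginone, with a log2 difference of 0.03 (SE 0.17, edgeR adjusted p = 0.868). Over the 8 genes of proline synthesis and breakdown, 2 rose and 5 fell. The second riser was Prodh, which degrades proline, and its adjusted p was 0.0550 without DMSO replicate 2.

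Asparagine, serine and transport genes filled in the rest of this group. Asns rose from 227, 235 and 209 to 871, 835 and 689 CPM (log2 1.83). Among serine and one-carbon enzymes 6 of 10 rose, including Psat1, from 383, 344 and 325 to 634, 668 and 432 CPM, and Mthfd2 (log2 1.42), while Mthfd1, the cytosolic counterpart, fell by 0.94. Transporters were mixed, with 11 of 24 higher and 9 lower. Slc7a11, the cystine importer, went from 1.74, 4.02 and 1.55 to 53.8, 43.3 and 29.9 CPM and Slc7a5, the importer of large neutral amino acids, from 164, 141 and 175 to 736, 754 and 650.2 CPM. No halofuginone library overlapped a DMSO library for these genes. Slc38a2, a neutral amino acid importer of system A, measured 245, 231 and 274 and 281, 257 and 307 CPM and did not pass (edgeR adjusted p = 0.181, but 0.0425 with the replicate block), and Slc43a1 fell by 1.81 on the log2 scale.

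**Figure D2:**
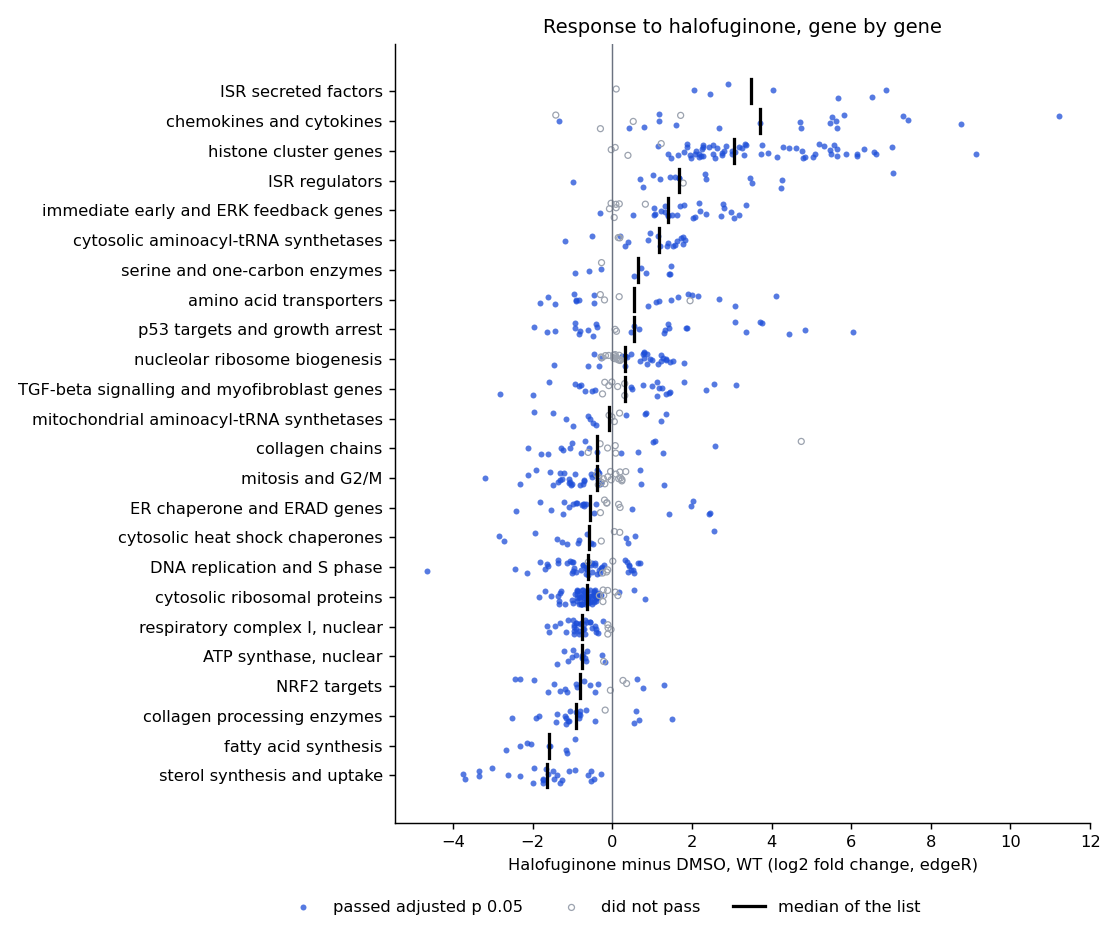
Log2 fold change of each tested member of 24 gene lists, halofuginone minus DMSO in WT cells. Filled dots passed an edgeR adjusted p of 0.05, open dots did not, and black bars are list medians, which run from 3.70 for chemokines and cytokines down to -1.63 for sterol genes.

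ER chaperones did not rise as a group. Of 28 tested, 16 fell and 6 rose, with a median of -0.56. Hspa5, the main ER chaperone BiP, was among those that rose, from 1423, 1604 and 1143 to 4131, 3927 and 3036 CPM (log2 1.41, SE 0.14), and its locus overlaps Rabepk. Hsp90b1, its partner in the ER, fell from 2493, 2717 and 2332 to 1744, 1407 and 1354 CPM, and Sdf2l1, a cofactor of BiP, fell from 16.5, 19.8 and 14.2 to 3.22, 2.73 and 3.52 CPM. The other members that rose were Atf6, a transcription factor of ER stress (log2 2.44), Xbp1 (log2 0.50), Herpud1, Ern1 and Derl3. Dnajb9, a target of spliced XBP1, measured 9.26, 12.9 and 8.82 and 13.8, 11.2 and 10.5 CPM and did not pass (edgeR adjusted p = 0.286). The ER stress element, CCAAT and CCACG 9 bases apart, was present in 9 of 23 promoters of the list (39.1%) and in 0.13% of all promoters. It occurs in the promoter of Hspa5, which rose, and in that of Hsp90b1, which fell. The Hspa5 stretch, at chr2:34771970-34772089, plus strand, ends at the start and has the element in capitals.
Hspa5: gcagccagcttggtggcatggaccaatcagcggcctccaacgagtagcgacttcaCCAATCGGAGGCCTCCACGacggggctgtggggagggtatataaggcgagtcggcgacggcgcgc

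Cytosolic chaperones and antioxidant genes were also mainly lower. Cytosolic heat shock chaperones fell in 11 of 18 cases, with 4 higher (2 without halofuginone replicate 1, without DMSO replicate 3 or when scaled by library size alone). Hspa8, the constitutive cytosolic chaperone, fell from 974, 862 and 868 to 414, 402 and 422 CPM and Hsph1, its exchange factor, from 400.3, 340.3 and 364 to 101, 97.8 and 91.03 CPM. Hspa1a went from 27.8, 28.5 and 25.4 to 3.03, 4.46 and 3.92 CPM, with the reservation that it is nearly identical to Hspa1b. Of 20 mitochondrial chaperones and proteases 5 rose (3 under 6 alternatives, which include leaving out halofuginone replicate 1 or 2 or DMSO replicate 3) and 8 fell, with a median of -0.08. Hspa9 rose from 999, 909 and 982 to 3209, 2925 and 2869.9 CPM and the protease Lonp1 from 179, 162 and 194 to 411, 424 and 317 CPM, whereas Hspd1 fell by 0.40 on the log2 scale (adjusted p = 0.0531 in edgeR with only the groups compared). NRF2 targets fell in 14 of 20 cases, among them Nqo1, from 109, 92.3 and 116 to 42.6, 32.95 and 38.8 CPM. Hmox1, the heme oxygenase, measured 43.4, 47.5 and 43.3 and 57.2, 61.7 and 53.1 CPM (log2 0.36, edgeR adjusted p = 0.0542, and 0.0171 to 0.0415 under 5 alternatives, among them DESeq2 and the replicate block).

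Type I and type III collagen and most enzymes that process collagen fell, while fibronectin and tenascin rose. Of 23 collagen chains, 11 fell and 6 rose. Col1a1 went from 5293, 4568 and 6838 to 2964, 2809 and 3843 CPM (log2 -0.80, SE 0.18, edgeR adjusted p = 0.00019). Col1a2 went from 5758, 5293 and 6470.5 to 2831, 2821 and 2986 CPM and Col3a1 from 1808, 1879 and 1409.9 to 441, 467 and 263 CPM (log2 -2.12). All 3 halofuginone libraries lay below all 3 DMSO libraries for each of these chains. Among the risers was Col5a3, a minor fibrillar chain (log2 2.59). Collagen processing genes fell in most cases, 18 of 23, with a median of -0.92. Serpinh1, the collagen chaperone, fell from 1207, 1339 and 1147 to 543, 598 and 477 CPM. P4ha1, which hydroxylates prolines of collagen, fell by 0.44 on the log2 scale and Lox, which crosslinks it, fell by 0.84.

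Among other matrix proteins, 4 of 19 rose and 9 fell. Fn1, fibronectin, rose from 6179, 5374 and 10372 to 17873, 16860.0 and 26386 CPM (log2 1.48, SE 0.24) and Tnc, tenascin C, from 1317 ± 285 to 5433 ± 734 CPM (SD, n = 3 each). Library 3 was the highest for Fn1 in both groups. Matrix proteases and their inhibitors rose in 9 of 16 cases, with Mmp13, a collagenase, from 3.26, 2.39 and 3.19 to 32.05, 29.8 and 13.3 CPM, while Mmp3, stromelysin, fell from 22.3, 25.8 and 26.5 to 17.00, 15.7 and 11.99 CPM. Lum, a fibril proteoglycan, fell by 1.87 on the log2 scale, with an adjusted p of 0.0541 without DMSO replicate 2 and 0.0513 by DESeq2.

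Genes of TGF-beta signalling did not move in a single direction. Of 31, 15 rose and 9 fell. The ligands diverged. Tgfb2 rose from 4.97, 4.44 and 3.81 to 32.05, 32.6 and 48.9 CPM and Tgfb3 fell from 56.9, 58.97 and 69.00 to 7.80, 9.67 and 8.45 CPM. Tgfb1 measured 28.1, 27.9 and 37.4 and 25.1, 27.4 and 26.3 CPM and did not pass (edgeR adjusted p = 0.0841). Among transducers Smad3 rose by 1.35 and Smad7, an inhibitor induced by the pathway, by 1.79 on the log2 scale. Among targets Ctgf rose from 210.0, 132 and 234 to 1139, 876 and 1394 CPM, whereas Acta2, the smooth muscle actin of myofibroblasts, fell from 2083, 1400.5 and 2776 to 1081, 795 and 1367 CPM (log2 -0.95).

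**Figure D3:**
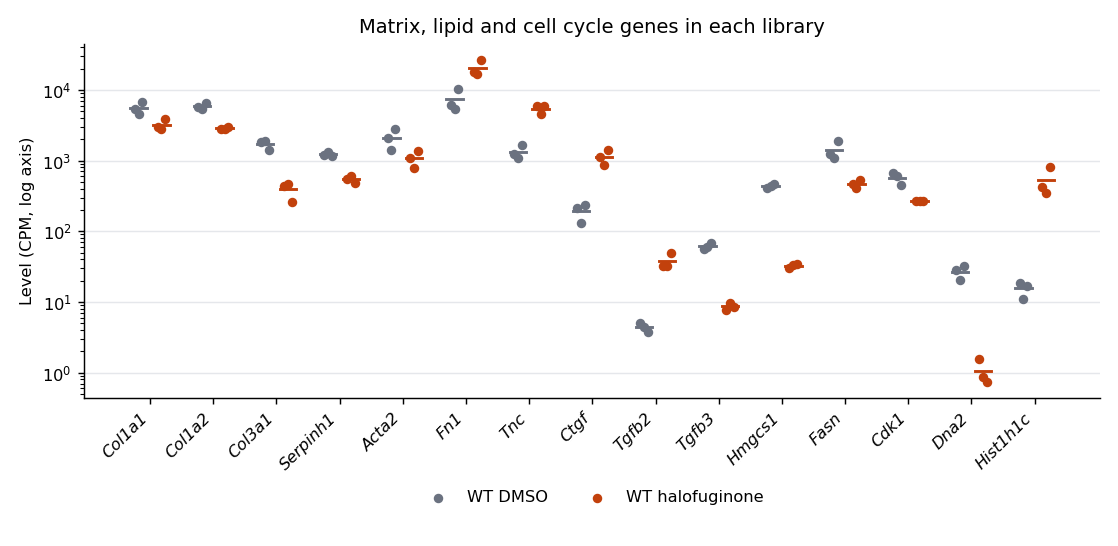
Level of 15 genes of matrix, lipid synthesis and cell cycle in each WT library, in CPM on a log axis, with dots for libraries and lines for means of 3. Collagen chains, Acta2, Hmgcs1, Fasn, Cdk1 and Dna2 lie lower under halofuginone (orange) than in DMSO (grey), and Fn1, Tnc, Ctgf, Tgfb2 and Hist1h1c lie higher.

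Since the compound blocks charging of proline tRNA, the share of proline codons was set beside the change in mRNA. Coding sequences of 82.7% of tested genes were found in GENCODE vM21. The 5 classes of equal size from the fewest to the most proline codons had median log2 changes of -0.07, 0.04, -0.002, -0.08 and -0.08, so the median did not follow proline content. The 50 genes richest in proline codons, among those of at least 100 codons, had a median of 0.016, with 19 higher and 14 lower. Among collagen chains the spread was wide at similar content: Col3a1, with 19.5% proline codons, had a log2 change of -2.12, and Col4a1, with 19.3%, had 0.09 and did not pass.

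Other transcript features did order the response, and they touch the lists described here. The class with the shortest transcripts had a median log2 change of -0.35 and the class with the longest 0.37. By GC content the medians went from 0.31 in the lowest class to -0.39 in the highest. Lists of short transcripts went both ways. The median length was 555.5 bases for histone genes and 2019 for ISR regulators, where most members rose. It was 1094 bases for cytosolic ribosomal proteins and 1025.5 for complex I, where most fell. The median GC content of these lists was 57.8%, 55.5%, 51.0% and 51.4%, in the same order. The part of transcript length and GC content in the results for single lists was not tested.

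**Figure D4:**
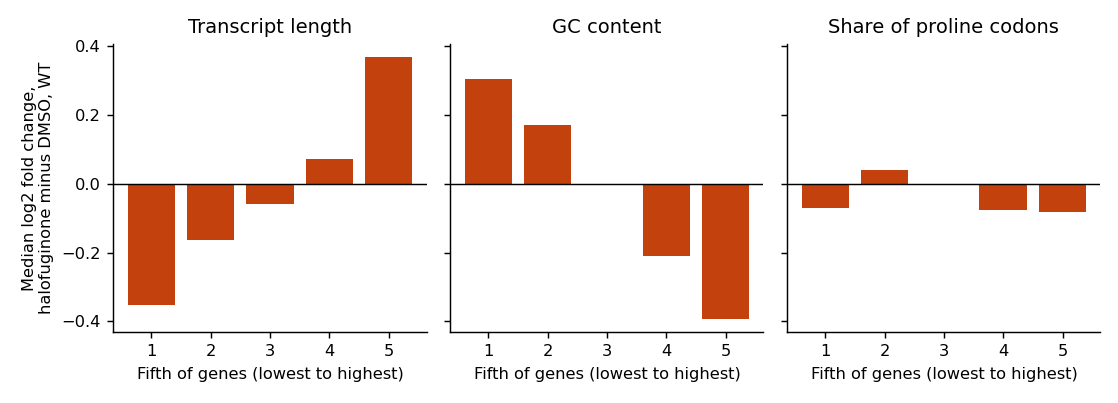
Median log2 fold change, halofuginone minus DMSO in WT cells, in 5 equal classes of tested genes ordered by transcript length, GC content and share of proline codons. Medians rise with transcript length from -0.35 to 0.37, fall with GC content from 0.31 to -0.39 and stay between -0.08 and 0.04 over proline codons.

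Genes of DNA replication and mitosis fell in most cases. Of 52 replication genes 37 fell and 10 rose (6 without halofuginone replicate 1 and 5 when scaled by library size alone). The largest fall was that of Dna2, a helicase and nuclease that processes Okazaki fragments, from 26.7 ± 5.88 to 1.06 ± 0.432 CPM (SD, n = 3 each), a log2 change of -4.66. Pcna, the sliding clamp, fell from 136, 153 and 134 to 76.4, 76.1 and 49.5 CPM, and the helicase subunits Mcm2 and Mcm5 had log2 changes of -0.43 and -0.39. In mitosis 32 of 51 genes fell and 3 rose (5 without DMSO replicate 1 and 6 with the replicate block). Cdk1, the mitotic kinase, went from 669, 599 and 445 to 271, 272 and 269 CPM and Pttg1, securin, from 18.9, 22.7 and 13.2 to 1.86, 2.87 and 1.26 CPM. The cell cycle homology region TTTGAA, a repressor element of these genes, was present in 31 of 42 mitosis promoters (73.8%) and in 18.1% of all promoters. The promoter of Cdk1, at chr10:69352913-69353032, minus strand, is shown up to the start as an example with 2 matches in capitals.
Cdk1: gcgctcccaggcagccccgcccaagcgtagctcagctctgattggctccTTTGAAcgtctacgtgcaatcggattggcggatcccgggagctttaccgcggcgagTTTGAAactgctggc

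Histone genes were an exception to the fall in S phase genes. Of 66 tested genes of the histone clusters 62 rose and none fell, with a median of 3.05 (3.00 with the 2 genes that had no DMSO count set to their lower bound). Replication-dependent histone mRNAs normally lack a poly(A) tail and are made in S phase. Their summed level was 53.6, 50.5 and 45.4 CPM in the DMSO libraries and 884, 779.9 and 1844 CPM under halofuginone, so library 3 was highest and all 3 lay above the controls. Hist1h1c, a linker histone, accounted for much of it, with 18.7, 10.9 and 16.9 CPM in DMSO and 429, 352 and 799 CPM under halofuginone (log2 5.09, SE 0.27). Hist3h2ba, without a DMSO count, was at least 22.4-fold higher against a floor of 3 counts per library. Many histone genes are near-identical copies, so the level of a single copy is uncertain. The labels name both ribosomal RNA removal and mRNA selection, and whether poly(A) selection was used was not given.

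Growth arrest genes gave a mixed picture. Of 29 p53 targets and arrest genes 16 rose and 11 fell. Gadd45a, a stress sensor that is also an ATF4 target, rose 65.97-fold, from 8.51, 8.88 and 6.47 to 472, 595 and 508 CPM, and overlaps a predicted transcript. Cdkn1a, the cell cycle inhibitor p21, rose from 56.1, 52.1 and 55.6 to 137, 152 and 144 CPM and Mdm2, the p53 ligase, from 92.6, 84.01 and 89.4 to 288, 309.7 and 371 CPM. Cyclin D1, encoded by Ccnd1, fell from 308, 275 and 402 to 164, 176 and 211 CPM, and Ccng2, a cyclin linked to quiescence, fell by 1.97 on the log2 scale.

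Immediate early genes and cytokines rose strongly. Of 33 immediate early and ERK feedback genes 25 rose, with a median of 1.39. Egr1 went from 57.1, 42.9 and 44.6 to 356, 277 and 567 CPM, Fos from 1.77, 1.77 and 1.11 to 11.1, 10.7 and 20.6 CPM and Myc from 96.4, 70.9 and 107 to 617, 628 and 667 CPM. These are transcription factors that growth factors and stress induce within a short time. Dusp6, a phosphatase that reports ERK activity, had a log2 difference of 0.10 (SE 0.17) and did not pass, and Etv4, another ERK target, fell by 0.31 (edgeR adjusted p = 0.0442, but 0.0710 to 0.221 under 5 alternatives).

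Among 23 chemokines and cytokines 18 rose, with a median of 3.70 as fitted and of 2.77 with the 3 genes without a DMSO count (Ccl20, Cxcl2 and Icam1) at their lower bound. Il11, a cytokine of fibroblasts, rose from 2.60, 3.57 and 2.91 to 156, 158 and 144 CPM (log2 5.65, SE 0.23), and its locus overlaps Tmem190. Cxcl1, which attracts neutrophils, rose from 7.14, 6.30 and 3.81 to 126, 188 and 148 CPM, and Il6 from 0.286, 0.225 and 0.0929 to 6.75, 13.7 and 6.88 CPM. Ccl20, at 5.79, 13.6 and 5.43 CPM, was at least 94.4-fold higher against the floor of 3 counts per library. Leukocyte markers were low in these libraries, with a summed level of 4.30 to 4.74 CPM in DMSO and 5.63 to 12.1 CPM under halofuginone over 7 markers. Under halofuginone Fcgr1 was at 2.01, 2.14 and 5.49 CPM, Itgam at 1.24, 1.23 and 2.31 CPM and Ptprc at 0.155, 0.381 and 0.956 CPM, each above all DMSO libraries, where none exceeded 0.169 CPM. Cd68 was lower, with 2.20, 2.31 and 2.41 CPM in DMSO and 0.526, 0.879 and 0.524 CPM under halofuginone, and Adgre1 and Lyz2 were at the floor. Epithelial markers summed to 0.171 to 0.506 CPM in DMSO and to 17.2 to 23.9 CPM under halofuginone. That sum was carried by Krt8 and Krt18, with 9.72, 14.3 and 9.47 and 7.52, 8.62 and 6.35 CPM, while Krt5 was at the floor and Epcam was at most 0.169 CPM in any of the 6 libraries. Interferon-stimulated genes were mainly not changed, with 16 of 28 not passing, 9 higher and 3 lower (9 with the replicate block or without a filter on low counts, 6 when scaled by library size alone or without halofuginone replicate 2, and 5 without DMSO replicate 3).

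Ribosomal protein mRNAs fell while nucleolar factors rose. Of 77 cytosolic ribosomal protein genes 67 fell and 3 rose, with a median of -0.64 and a summed level of 25786, 26587 and 21980.0 CPM in DMSO and 18489, 18341 and 14084 CPM under halofuginone. Rpl41, which encodes a very short protein, fell the most, from 75.1, 81.7 and 66.9 to 23.1, 21.96 and 16.9 CPM. The median transcript length was 1094 bases in this list and 3222 bases over all tested genes. Nucleolar factors of ribosome assembly rose in 24 of 45 cases and fell in 5, Nop56, a core protein of snoRNA particles, by 0.96 on the log2 scale. Mitochondrial ribosomal proteins fell in 46 of 77 cases.

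Respiratory chain genes of the nucleus fell in each complex. Lower were 32 of 36 genes of complex I, 4 of 4 of complex II, 8 of 9 of complex III, 11 of 11 of complex IV and 14 of 15 of ATP synthase, and none was called higher. Their extent differed between subunits. Ndufa8, of complex I, went from 118, 102 and 115 to 38.9, 38.4 and 29.6 CPM (log2 -1.65), and Ndufs1, the largest iron-sulphur subunit, measured 196, 206 and 185 and 186, 187 and 172 CPM and did not pass (edgeR adjusted p = 0.23). Transcripts of complex I genes, too, were short, with a median of 1025.5 bases. Of 13 mRNAs encoded by mitochondrial DNA 8 fell, but 13 without a filter on low counts, 2 without DMSO replicate 2, 3 without halofuginone replicate 3 and 4 without halofuginone replicate 2.

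Genes of lipid synthesis fell without exception among those tested. All 26 tested genes of sterol synthesis and uptake fell, with a median of -1.63, as did all 9 of fatty acid synthesis, with a median of -1.60. Hmgcs1, an early enzyme of the mevalonate pathway, went from 411, 431 and 464 to 30.3, 32.95 and 34.3 CPM (log2 -3.74, SE 0.20, edgeR adjusted p = 4.5e-16). Fasn, fatty acid synthase, went from 1257, 1085 and 1904 to 465, 403 and 532 CPM. In neither gene did the groups overlap.

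Glucose metabolism, autophagy and survival genes changed member by member. Glycolysis genes fell in 16 of 25 cases. Pfkm, the muscle form of phosphofructokinase, went from 74.5, 79.6 and 72.4 to 7.83, 6.01 and 5.03 CPM (log2 -3.59), though it overlaps Senp1. Txnip, a brake on glucose uptake, rose from 21.4, 23.5 and 15.7 to 454, 446 and 563 CPM (log2 4.59) and overlaps a predicted gene. For autophagy 12 of 33 rose and 15 fell, with Sqstm1, the receptor p62, rising from 474, 601 and 539 to 2421, 2883 and 2396 CPM and Map1lc3b, a membrane protein of autophagosomes, with a log2 change of -0.48. Of 20 genes of the BCL-2 family and caspases 4 rose, 8 fell and 8 did not pass. Mcl1, which protects from apoptosis, rose by 1.19 on the log2 scale, and Bcl2l11, the pro-apoptotic BIM, had a log2 change of -1.27. Bmf went from a mean of 0.967 CPM in DMSO to 0.0596 CPM under halofuginone, which lies below the floor. The size of its log2 change of -3.93 is therefore uncertain.

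The largest changes were also ranked over all genes, whether inside or outside these lists. Lif, a cytokine of the interleukin 6 family, is listed with the cytokines and had one of the 10 largest rises among genes with more than 3 counts in each of the 6 libraries and a mean of at least 4 CPM, from 3.99 ± 0.104 to 184 ± 26.6 CPM (SD, n = 3 each). Besides Atf3, Gadd45a, Il11, Cxcl10 and Lif, the 10 included 4 histone genes and LOC105244717, a locus without a gene name. Genes without DMSO counts, such as Ccl20, are outside that limit. The 10 largest falls by the same limits were of Skida1, Dna2, Efna4, Chst12, Trib2, Fkbp14, Tmem119, Fam69b, Cbx2 and Emilin1. Emilin1, an elastic fibre glycoprotein, was the most abundant of them and went from 247, 264 and 237 to 17.2, 22.9 and 12.4 CPM (log2 -3.83). Efna4, a ligand of Eph receptors, went from 17.6, 21.3 and 17.7 to 0.898, 1.08 and 1.08 CPM, and Trib2, a relative of Trib3, from 15.2, 18.02 and 17.1 to 0.557, 1.32 and 0.956 CPM. Fkbp14, a prolyl isomerase that acts on procollagen in the ER, went from 19.5, 23.2 and 13.00 to 1.76, 0.586 and 1.08 CPM.

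Halofuginone was next compared directly with BtdCPU, a compound known as an activator of HRI, another eIF2 alpha kinase. Without use of a DMSO library, 10339 genes (64.4%) differed, 5212 higher (32.4%) and 5127 lower (31.9%) under halofuginone. Doses and times are not given, so the compounds and their doses cannot be told apart. Of the ISR regulators 8 of 17 were higher and 4 lower, with a median of 0.32. Asns measured 798 ± 96.6 CPM (SD, n = 3) under halofuginone and 697 ± 94.4 CPM (SD, n = 3) under BtdCPU and did not pass (edgeR adjusted p = 0.0958). The log2 difference, halofuginone minus BtdCPU, was -0.85 for Trib3, -0.32 for Atf4 and 2.53 for Atf3. Histone genes had the highest median of the 39 lists, with 62 of 66 higher and a log2 difference of 3.49. Txnip stood at 488 ± 65.2 CPM (SD, n = 3) under halofuginone and 5.49 ± 5.48 CPM (SD, n = 3) under BtdCPU. Its level in WT DMSO was 20.2 ± 4.02 CPM (SD, n = 3). Collagen processing genes were lower under halofuginone in 19 of 23 cases, all 9 fatty acid genes were lower, and immediate early genes were higher in 24 of 33. For sterol genes 14 of 26 were lower than under BtdCPU. The mitochondrial ribosomal RNAs Rnr1 and Rnr2 had log2 differences of -3.84 and -3.88, the lowest among genes named by the same rule. Against DMSO, Rnr1 did not pass under halofuginone (log2 -0.37, edgeR adjusted p = 0.15), and its log2 difference was 3.47 under BtdCPU. Rnr2 fell under halofuginone, from 823 ± 86.3 to 345 ± 70.5 CPM (SD, n = 3 each, log2 -1.25, edgeR adjusted p = 0.00022). The labels name ribosomal RNA removal, and its part in the levels of Rnr1 and Rnr2 was not tested.

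Thapsigargin empties the ER of calcium by inhibiting the SERCA pump, and PERK is 1 of the sensors that respond to it. Between halofuginone and thapsigargin 8859 genes (55.1%) differed, 4425 higher (27.5%) and 4434 lower (27.6%) under halofuginone. The ER chaperones separated the treatments, with 25 of 28 lower under halofuginone and a median of -2.24. Hspa5 was at 3698 ± 582 CPM (SD, n = 3) under halofuginone and at 20048 ± 2032 CPM (SD, n = 3) under thapsigargin. Sdf2l1 had the lowest difference among genes chosen by the same limits, 3.15 ± 0.398 against 300.3 ± 40.6 CPM (SD, n = 3 each), a log2 difference of -6.57. ISR regulators were divided, 5 higher and 5 lower of 17, with a median of 0.07. Within them Ddit3 had a log2 difference of -1.21, and Ppp1r15a differed by -0.02 (SE 0.21) and did not pass. Immediate early genes were higher under halofuginone in 31 of 33 cases, with Egr1 at 399.9 ± 149.7 against 10.1 ± 1.71 CPM (SD, n = 3 each). In WT DMSO Egr1 was at 48.2 ± 7.75 CPM (SD, n = 3), so it was lower under thapsigargin than in DMSO. The median of the list was 2.05 against thapsigargin and 1.39 against DMSO. Ctgf had a log2 difference of 4.05 between the treatments and of 2.57 between halofuginone and DMSO. Of the TGF-beta list 19 of 31 were higher under halofuginone.

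**Figure D5:**
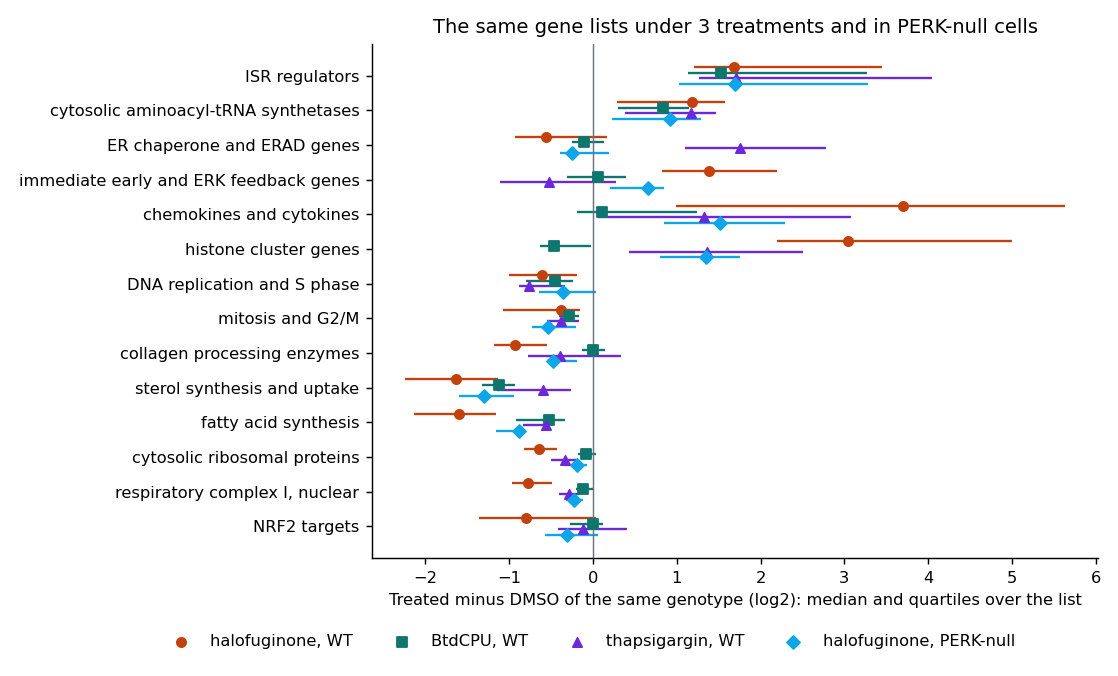
Median (symbol) and quartiles (line) of the log2 difference from DMSO of the same genotype over 14 gene lists, for halofuginone, BtdCPU and thapsigargin in WT cells and halofuginone in PERK-null cells. The 3 WT treatments share their DMSO libraries. ISR regulators have similar medians in all 4, from 1.53 to 1.70, whereas ER chaperones are at 1.75 under thapsigargin and -0.56 under halofuginone, and histone genes at 3.05 under halofuginone in WT and 1.35 in PERK-null cells.

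The last comparison asked whether the response to halofuginone was the same in PERK-null cells. Eif2ak3 measured 9.37, 9.67 and 10.8 CPM in PERK-null DMSO libraries and 10.1, 7.66 and 10.1 CPM in PERK-null halofuginone libraries, below the 6 WT libraries with DMSO or halofuginone, so its reads were lower but not absent. The responses differed in 5615 genes (35.0%), with 2807 more positive (17.5%) and 2808 more negative (17.5%) in PERK-null cells. In PERK-null cells 16 of 17 ISR regulators rose, against 21.2% of all tested genes, with a median of 1.69. The response of 8 of them was lower than in WT and that of 2 higher, and the differences over the list ran from -2.45 to 3.115. Atf3 had a log2 response of 4.59 in PERK-null and 7.04 in WT cells. The responses differed by -2.45 with an SE of 0.33 (adjusted p = 1.5e-06 by edgeR). Asns, with responses of 1.56 and 1.83, did not differ by the test (edgeR adjusted p = 0.142), nor did Trib3 with 3.83 and 3.51 (edgeR adjusted p = 0.549). Lower responses in PERK-null cells were seen for histone genes in 38 of 66 cases, immediate early genes in 20 of 33 and chemokines and cytokines in 12 of 23. Col3a1, which fell by 2.12 in WT, had a log2 response of -0.56 in PERK-null cells (edgeR adjusted p of the difference = 1.9e-05). Cdkn1a had 2.30 in PERK-null and 1.40 in WT cells (edgeR adjusted p of the difference = 0.00093). The sterol genes had medians of -1.30 and -1.63, and 9 of 26 had a more positive and 1 a more negative response in PERK-null cells. The largest difference was 5.14, more than the largest WT fall of the list (log2 -3.74). The fitted response of that gene in PERK-null cells was thus positive. Its level, and whether that response passed by itself, are not reported here.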

How the data were processed

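RNA of 36 libraries was prepared with a column kit and sequenced strand-specifically on a DNBSEQ platform, per the labels' protocols, which name both ribosomal depletion and mRNA selection. The values are estimated counts per gene as deposited by the authors, with 0.025 in place of 0, which was set back to 0. Of the other values, 2.69% are not whole, and all were rounded. The submitters' processing notes name GRCm39 and DESeq, and the aligner and counter are not given in the sources used here. From the 36930 entries, 27 with names turned into dates (0.206% to 0.278% of counts) were left out and 39 repeated symbols were summed.

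The quasi-likelihood test of edgeR 4.0.16 (R 4.3.3) was fitted to 12 group means over all 36 libraries (filterByExpr, TMM, robust, 24 residual degrees of freedom), with Benjamini-Hochberg adjustment over 16065 genes and a threshold of 0.05. Total counts were 33630755 to 36723456 per WT halofuginone or DMSO library. The procedure was tested on simulated data. DESeq2 1.42.0 and the other settings of the closing section served as alternatives. Same-numbered halofuginone and thapsigargin libraries deviated together (r = 0.187, 0.145 and 0.262), while for halofuginone and DMSO r was 0.064, 0.151 and 0.229. The labels give no reason for a pairing.

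The comparison, the 39 lists and the rule for named genes were chosen with earlier results of these data known. The rule named anchor genes of each list, the largest rise and fall in each list, the 10 largest rises and falls over all genes, and the 4 largest in each direction in the other comparisons. The largest changes were taken among called genes with a mean of at least 4 CPM, more than 3 counts in every library compared, no overlap between the groups (not for the difference between genotypes) and a symbol that is not a predicted gene model. Kars, Herpud1, Ern1, Derl3, Cxcl2, Icam1, Krt8 and Krt18, and any other gene outside that rule, were named after their values were seen. Some genes that the rule names are not reported here. Promoters are those of RefSeq on GRCm38.p6, found for 11763 of 16065 tested genes (fewer than 80%), so motif shares are given only for lists with at least 80% covered and for all promoters of the table. Planned shares of amino acids were replaced by proline codons of GENCODE vM21 coding sequences, because no protein table was used here.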

Additional observations from a re-analysis of the deposited data

Results flagged for a closer look

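The response to halofuginone was tested for a difference between PERK-null and WT cells by an interaction contrast in edgeR, and 5615 of 16065 genes passed. Of the 198 genes named by rule, 116 differed, beside 35.0% of all tested genes. Some of the 198 were chosen by the size of this same difference, and many by the WT response that enters it. Their count is therefore not a result about these genes. Positive differences, PERK-null minus WT on the log2 scale, were 3.39 for Cyp26b1, which degrades retinoic acid, 3.36 for Acot2, a mitochondrial thioesterase, 3.29 for Kif21b, a kinesin, and 2.88 for Mamdc2. Negative differences were -4.33 for Hist1h1d, -4.15 for Cxcl10, -4.08 for Hist1h2ba and -4.08 for Hist1h1e. Among regulators of the integrated stress response, negative differences were -2.45 for Atf3, -0.66 for Atf4, -0.91 for Ddit3, -0.97 for Chac1 and -0.85 for Ppp1r15a. Over the 17 genes of that list, 8 differences were negative, 2 were positive and 7 did not pass. They ran from -2.45 for Atf3 to 3.115, so the difference largest in size was positive, in a gene other than those just given.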

How the results depend on the processing

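The counts of called genes in the 4 comparisons stayed within 1.5 times under each alternative run. For halofuginone against DMSO in WT cells 10949 genes became 11087 by DESeq2 and 9437 with only the groups compared, and 10287 to 10567 when single replicates were left out. Leaving out single replicates gave 9666 to 9981 genes against BtdCPU, 7886 to 8570 against thapsigargin and 4630 to 5766 for the difference between genotypes. With the replicate number within genotype as a block, the counts were 11677, 11211, 9938 and 7292 in that order, and in WT cells the mitosis genes that rose went from 3 to 6, the interferon-stimulated genes that fell from 3 to 9, the NRF2 targets that rose from 3 to 5 and the chemokines and cytokines that fell from 1 to 3. Library size as the only scaling shifted the median of all genes by -0.114 for halofuginone against DMSO and by 0.103 for the difference between genotypes.

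No list median changed sign under any alternative run. Of the values for named genes 2567 kept their direction and side of the threshold, 59 no longer passed, 18 newly passed and 8 reversed, none of which passed in either fit. Pycr1 reversed to -0.091 with library size as the only scaling and to -0.032 without a filter on low counts, and ranged from -0.171 (without halofuginone replicate 2) to 0.213 with single replicates left out. Dusp6 reversed to -0.033 with library size as the only scaling and ranged from -0.000186 (without halofuginone replicate 1) to 0.131. The cause was not tested.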
